A study of Ovis aries with 6 samples.

Results

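PLAC8, SCRG1, CNGA3, XPNPEP2 and RFTN1 are 5 protein-coding genes chosen by their measured FPKM, as large rises with MEOX2 overexpression in sheep fat-tissue cells. They are 5 of the 26425 rows of the deposited expression table, found by gene symbol, with 1 row each. The choice used the difference between the MEOX2 and control libraries, so that difference is described here without a test. The 5 do not form a pathway. Relatives and known partners were listed by role, and neighbouring genes by position, and those above a filter on low values were tested.

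The 6 samples are sheep (Ovis aries) cells from adipose stromal vascular fraction, a mixture that includes fat-cell precursors, and all 6 are labelled adipocyte. In 3 samples MEOX2, a mesodermal homeobox transcription factor, was overexpressed, and 3 samples form the control group labelled NC. The study asked which genes differ between them. The table's column names give both groups the prefix pHBLV. The labels do not state age, sex, culture time or number of animals, nor whether the 3 samples of a group came from separate cultures. The p-values therefore reflect the scatter among these samples only, and that scatter may be technical.

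Values are FPKM, reads scaled to the length of the gene row and to library size, as deposited by the authors. Whole reads recovered from them totalled between 11772772 and 12230863 per library. MEOX2 itself was at 153, 108 and 138 FPKM in the 3 MEOX2 libraries and at 10.8, 10.1 and 9.03 FPKM in the 3 NC libraries, a ratio of 13.3, and gene-level values do not separate the introduced from the native transcript. NC sample 3 stood apart on the second principal component (22.2% of variance), so ratios without it are given below. Of 7 mature adipocyte markers found in the table, 6 were tested and 4 fell, where 1.16% of all 13121 tested genes fell, with ADIPOQ at 7.13 ± 1.08 against 36.9 ± 2.67 FPKM (SD, n = 3 each). Of the 4, PLIN1 and CIDEC lost their calls without any 1 library (limma adjusted p 0.0514 to 0.0958). LEP, which encodes leptin, had 0 reads in all 6 libraries. Of 10 stromal progenitor markers, 9 were tested and limma called 0, with 4 of the 9 higher with MEOX2 and a median log2 difference of -0.02. An unadjusted p under 0.05 was found for 4 of them, against 13.4% of all tested genes, and limma voom called ENG, at 15.99 ± 0.855 with MEOX2 and 19.9 ± 1.33 FPKM in NC, against 4.37% of all tested genes. COL1A1 was at 10594 ± 759 and 9410 ± 767 FPKM and NT5E at 147 ± 4.28 and 173 ± 6.75 FPKM. Of the 4 with an unadjusted p under 0.05, ENG, NT5E and CD34 were lower with MEOX2 and PDGFRA was higher. CD34 was at 0.642 ± 0.270 with MEOX2 and 1.37 ± 0.199 FPKM in NC, and PDGFRA at 174 ± 4.65 and 150 ± 15.4 FPKM. The MEOX2 level of CD34 alone would not have passed the filter of 1 FPKM used for testing. CD34 thus entered the tested genes through the NC libraries, with 27 reads over the MEOX2 libraries and 58 over NC. The part of these markers in the values of the 5 genes was not tested.

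The 5 genes encode proteins of unlike kinds. PLAC8 is a small cysteine-rich protein that, in mice, acts upstream of the transcription factor C/EBP beta in brown fat cells. SCRG1 is a small secreted protein of mesenchymal stem cells and cartilage that binds the surface protein BST1 together with integrin beta 1. CNGA3 is the pore-forming subunit of the cyclic nucleotide-gated channel of cone photoreceptors, opened by cGMP. XPNPEP2 is the membrane-bound form of aminopeptidase P, which removes an N-terminal residue next to proline and so inactivates bradykinin. RFTN1, or raftlin, is a protein of lipid rafts known from B cells and from the uptake of the receptors TLR3 and TLR4.

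PLAC8 (ENSOARG00000002173) lies on chromosome 6, 97495356 to 97504161, minus strand, in the coordinates of the deposited table, for which no genome build is stated. Its level was 13.1, 14.6 and 16.7 FPKM in MEOX2 samples 1 to 3 and 1.61, 2.03 and 1.78 FPKM in NC samples 1 to 3. All 3 MEOX2 libraries were above all 3 NC libraries. The group means were 14.8 ± 1.799 and 1.81 ± 0.210 FPKM (SD, n = 3 each), a ratio of 8.19. These values rest on few reads, 54, 66 and 74 with MEOX2 and 7, 9 and 8 in NC. The exact 95% counting interval of the ratio, which covers counting error only, ran from 5.35 to 13.1. Without NC sample 3 the ratio was 8.14.

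SCRG1 (ENSOARG00000015360; chromosome 2, 106201970 to 106204689, plus strand) was at 21.97, 23.6 and 20.4 FPKM in MEOX2 samples 1 to 3. In NC samples 1 to 3 it was at 3.61, 4.90 and 4.86 FPKM. The groups did not overlap, and NC sample 1 was the lowest of the 6. The means were 21.99 ± 1.57 and 4.46 ± 0.733 FPKM (SD, n = 3 each), a ratio of 4.93 with a counting interval of 3.61 to 6.85, and the ratio was 5.17 without NC sample 3. The row is only 300 bases long, so 21.97 FPKM in MEOX2 sample 1 corresponds to 75 reads. The libraries held 75 to 88 reads with MEOX2 and 13 to 18 reads in NC.

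CNGA3 (ENSOARG00000013580; chromosome 3, 102747927 to 102772437, minus strand) was at 5.39, 4.62 and 4.86 FPKM in MEOX2 samples 1 to 3 and at 0.515, 0.505 and 0.385 FPKM in NC samples 1 to 3. It was the lowest of the 5 genes in both groups. The means were 4.96 ± 0.393 and 0.468 ± 0.0724 FPKM (SD, n = 3 each), a ratio of 10.6 with a counting interval of 7.50 to 15.3. The reads numbered 129, 121 and 125 with MEOX2 against 13, 13 and 10 in NC. Its NC level alone would not have passed the filter of 1 FPKM used for testing, so CNGA3 entered the tested genes through the MEOX2 libraries. Without NC sample 3 its ratio was 9.72.

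XPNPEP2 (ENSOARG00000014954; chromosome X, 107995211 to 108019923, plus strand) was the most abundant of the 5, at 91.9, 70.5 and 76.3 FPKM in MEOX2 samples 1 to 3. In NC samples 1 to 3 it was at 27.9, 28.3 and 33.9 FPKM. NC sample 3 was the highest control library and MEOX2 sample 2 the lowest MEOX2 library, and they remained apart. The means were 79.6 ± 11.04 and 30.0 ± 3.36 FPKM (SD, n = 3 each), a ratio of 2.65. With 1774 to 2114 reads per MEOX2 library and 677 to 847 per NC library, counting error was small and gave an interval of 2.51 to 2.77. The squared deviations between the 3 MEOX2 libraries were 36.6 times what counting alone gives, and those between the 3 NC libraries 9.30 times. Without NC sample 3 the ratio was 2.83.

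RFTN1 (ENSOARG00000015440; chromosome 1, 271377453 to 271600298, minus strand) was at 44.4, 39.1 and 39.7 FPKM in MEOX2 samples 1 to 3 and at 16.8, 15.6 and 14.8 FPKM in NC samples 1 to 3. It had the least scatter relative to its mean in both groups, with coefficients of variation of 7.11% and 6.39%. The means were 41.1 ± 2.92 and 15.8 ± 1.01 FPKM (SD, n = 3 each), a ratio of 2.60 with a counting interval of 2.41 to 2.80. Reads per library ranged from 825 to 858 with MEOX2 and from 311 to 343 in NC. The squared deviations between MEOX2 libraries were 4.14 times those of counting alone. Without NC sample 3 the ratio was 2.53.

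**Figure D1:**
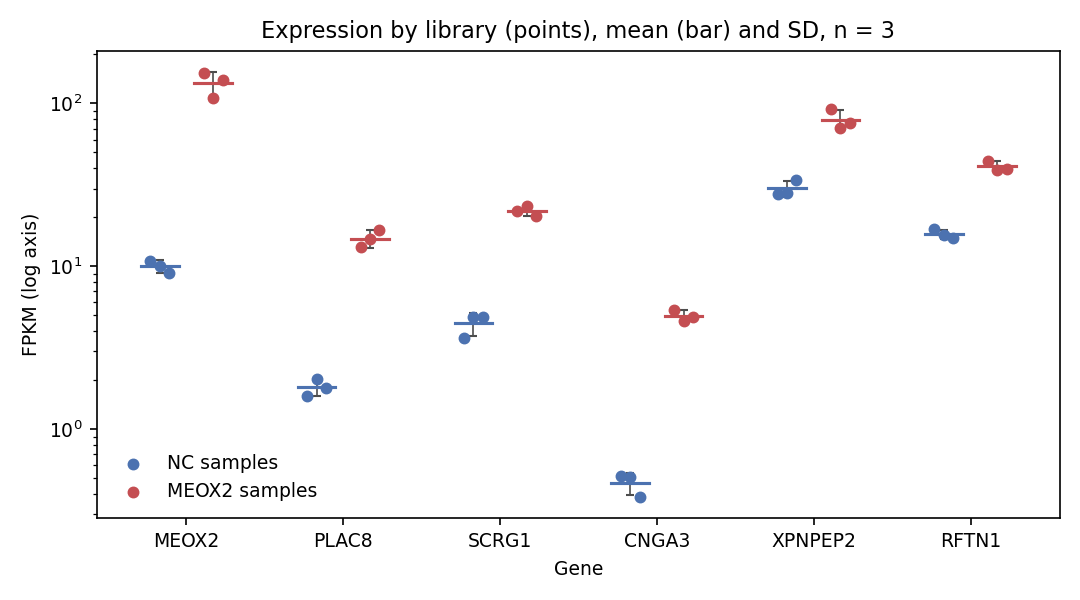
FPKM (log axis) of MEOX2 and the 5 genes in each library, NC in blue and MEOX2 samples in red, with the mean as a bar and the SD as a thin line (n = 3). For each gene the red points lie above the blue points, and CNGA3 in NC is the lowest, at 0.385 to 0.515 FPKM.

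For all 5 genes the lowest MEOX2 library was above the highest NC library, a pattern that 9.60% of the 13121 tested genes showed in this direction. The genes were chosen for this difference, so the count of 5 is a description. For PLAC8, SCRG1 and CNGA3 the squared deviations between replicates were 0.108 to 0.939 times what counting alone gives in either group. With 3 libraries per group these ratios are themselves imprecise.

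The ratios fell into a higher and a lower range. Over the 9 pairs of a MEOX2 and an NC library, the ratio ran from 8.98 to 14.0 for CNGA3, from 6.45 to 10.4 for PLAC8 and from 4.17 to 6.53 for SCRG1. For XPNPEP2 it ran from 2.08 to 3.29 and for RFTN1 from 2.32 to 2.99. The ranges of CNGA3 and PLAC8 overlapped, those of PLAC8 and SCRG1 overlapped slightly, and those of XPNPEP2 and RFTN1 overlapped. No pair ratio of XPNPEP2 or RFTN1 reached the lowest of SCRG1. A ratio of group means of at least 2 in this direction was seen in 1.02% of tested genes.

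**Figure D2:**
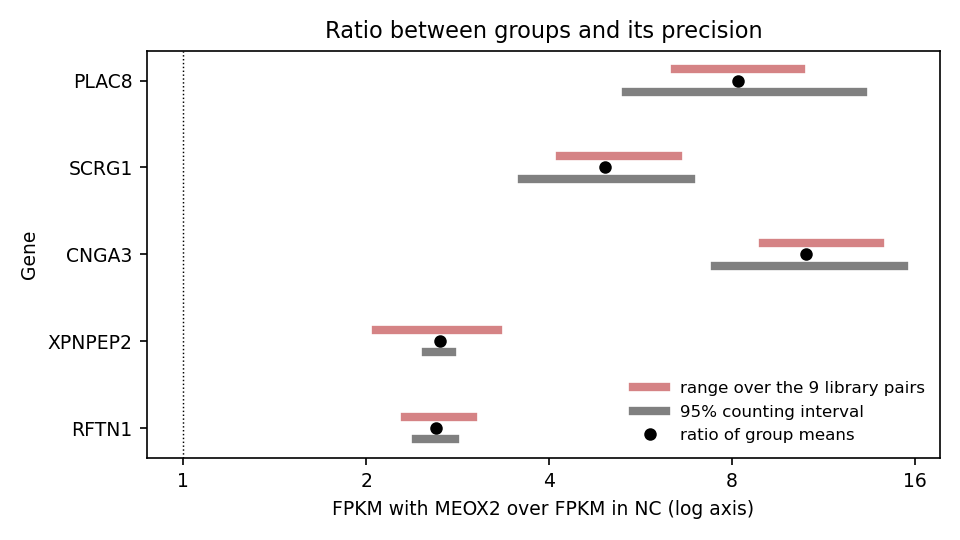
Ratio of FPKM with MEOX2 to FPKM in NC (log axis), with group means as dots, the range over the 9 library pairs in red and the exact 95% counting interval in grey. The counting interval is the wider bar for PLAC8, SCRG1 and CNGA3, and the narrower for XPNPEP2, where it runs from 2.51 to 2.77.

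On the log2(FPKM + 1) scale, which understates the change of low genes, the differences were 2.49 for PLAC8, 2.08 for SCRG1, 2.02 for CNGA3, 1.37 for XPNPEP2 and 1.33 for RFTN1. Ordered by this difference among the tested genes, MEOX2 was at rank 1, PLAC8, SCRG1 and CNGA3 at ranks 2, 3 and 4, XPNPEP2 at rank 17 and RFTN1 at rank 21. Ordered by the plain ratio of group means, CNGA3 was at rank 4, PLAC8 at 7, SCRG1 at 17, XPNPEP2 at 53 and RFTN1 at 58. FOXO4 (rank 11) and SMOC2 (rank 15) lay between CNGA3 and XPNPEP2 on the log2 scale. So did the small RNA rows oar-mir-374b (rank 9), SNORD14 (rank 13) and SNORA31 (rank 14), and rows without a symbol. DPYSL3 (rank 19) and PPP1R14A (rank 20) lay between XPNPEP2 and RFTN1. SFRP1 (1.27, rank 25) and ITGA9 (1.26, rank 26) came soon after RFTN1.

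By level, XPNPEP2 ranked 3307 of 26425 rows in NC and 1306 with MEOX2, which placed it in the top 12.5% and the top 4.94%. RFTN1 moved from rank 5398 to rank 2518. SCRG1 moved from rank 9832 to rank 4281 and PLAC8 from rank 12018 to rank 5618. CNGA3 moved from rank 14173 to rank 9492. In each case the ranks in the single libraries of the 2 groups did not overlap. Ranks and percentages are over all 26425 rows, of which only 16426 to 16623 were above 0 FPKM in each library. The order of the 5 by FPKM was XPNPEP2, RFTN1, SCRG1, PLAC8, CNGA3 in both groups, and no 2 neighbours in that order overlapped within a group. The closest pair was SCRG1 and PLAC8 with MEOX2, at a ratio of 1.49.

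**Figure D3:**
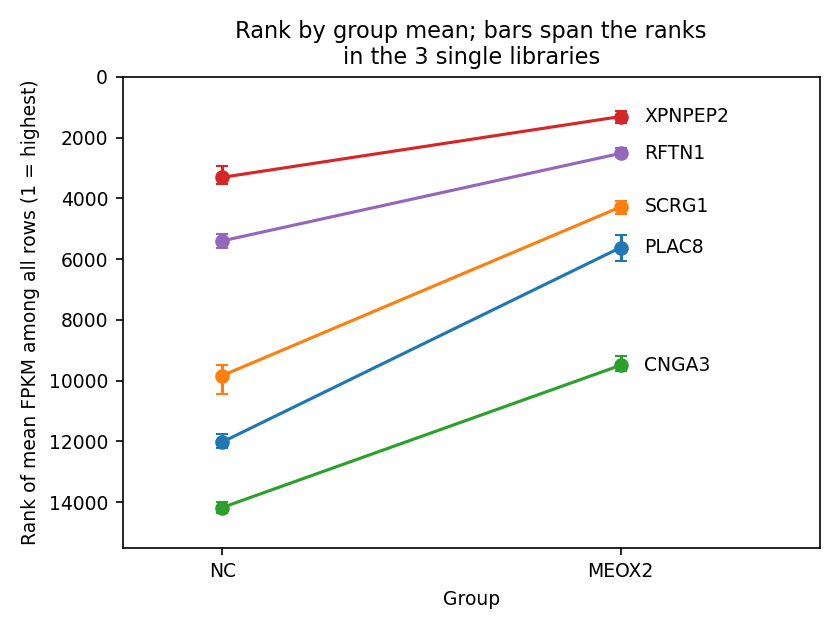
Rank of each gene's mean FPKM among all 26425 rows in NC and in the MEOX2 samples (1 is the highest level), with bars that span the ranks in the 3 single libraries. The 5 lines do not cross, and PLAC8 moves from rank 12018 to rank 5618.

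Levels compared between these genes depend on the length of the row. The rows of PLAC8 (363 bases), SCRG1 (300), CNGA3 (2103) and XPNPEP2 (2022) have lengths that are multiples of 3, as do 74.1% of protein-coding rows, and RFTN1 has 1697 bases. Rows without untranslated sequence would set FPKM differently from full transcripts, and which rows these are was not tested. No other row of the table overlapped any of the 5 genes on either strand.

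The order of the 3 overexpressing libraries by MEOX2 level was not seen in all 5 genes. MEOX2 sample 1, with the most MEOX2 (153 FPKM), had the highest XPNPEP2, RFTN1 and CNGA3 but the lowest PLAC8. MEOX2 sample 2, with the least MEOX2 (108 FPKM), had the highest SCRG1 and the lowest values of the other genes except PLAC8, which was intermediate. For PLAC8, SCRG1 and CNGA3 the squared deviations between these libraries were 0.416 to 0.939 times what counting alone gives. The order of the libraries for these genes is thus within counting error. With 3 libraries no relation was tested.

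The genes with the most similar pattern were found by the root-mean-square distance of log2(FPKM + 1) values, each centred on its own mean over the 6 libraries, against 10352 other tested genes with a symbol. The members with the higher ratios lay nearest to each other: SCRG1 and CNGA3 were each other's closest gene (0.172), and PLAC8 was closest to SCRG1 (0.254) and then CNGA3 (0.281). FOXO4, a forkhead transcription factor, at 42.6 ± 2.31 against 13.9 ± 0.682 FPKM, was the remaining gene among the 3 nearest to each of them. XPNPEP2 was closest to DPYSL3 (0.0602), SFRP1 (0.0994) and IGSF10 (0.106). RFTN1 was closest to SMOC2 (0.0771), DPYSL3 (0.0898) and ITGA9 (0.101). DPYSL3, a cytoskeletal protein of the dihydropyrimidinase-like family, was at 299.8 ± 30.3 against 117 ± 6.07 FPKM (SD, n = 3 each). This likeness mostly restates the difference between the groups.

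The closest relatives of the 5 genes were not called. XPNPEP1, the cytosolic aminopeptidase P, was at 47.3 ± 0.106 and 43.9 ± 2.44 FPKM with MEOX2 and in NC (SD, n = 3 each; log2 difference 0.11, SE 0.07, limma adjusted p = 0.615). XPNPEP3, the mitochondrial form, was at 8.37 ± 0.335 and 9.69 ± 0.713 FPKM (limma adjusted p = 0.455). RFTN2, the paralog of raftlin, was at 16.99 ± 0.556 and 14.4 ± 2.47 FPKM (limma adjusted p = 0.438). These are the 3 tested of 10 paralogs found in the table. None was called by limma, none had an unadjusted p under 0.05 and none was called by limma voom on the recovered reads. Over all tested genes the shares in either direction were 2.67%, 13.4% and 4.37%. The groups did not overlap for XPNPEP1, higher with MEOX2, and for XPNPEP3, higher in NC, and they overlapped for RFTN2. Of all tested genes, 18.9% had no overlap in either direction. PLAC8L1 had 17 reads over the MEOX2 libraries and 6 over NC, with overlapping groups.

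The channel subunits related to CNGA3 were nearly without reads. CNGA1, CNGA2, CNGB1 and CNGB3, the last being the modulatory subunit that joins CNGA3 in cones, had 0 reads in all 6 libraries, and CNGA4 had 1 read in NC. Of 9 cone photoreceptor markers, the transcription factor CRX and the calcium sensor RCVRN also had 0 reads. GNAT2, the cone transducin subunit, was the only one tested, at 4.45 ± 0.489 and 4.12 ± 0.442 FPKM (limma adjusted p = 0.840). The summed level of the 9 markers was 4.47 to 5.13 FPKM with MEOX2 and 4.31 to 4.63 FPKM in NC.

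Of 28 rows for genes that make, degrade or answer to cGMP, 16 were tested, 1 rose, 1 fell and 14 were not called. Over all tested genes, 1.51% rose and 1.16% fell. PDE10A, a phosphodiesterase of cAMP and cGMP, rose from 3.84 ± 0.217 to 6.42 ± 0.297 FPKM (SD, n = 3 each; log2 difference 0.62, SE 0.10, limma adjusted p = 0.0180). Leaving out any 1 of MEOX2 samples 1, 2 or 3 or NC sample 1 ended its call (limma adjusted p at most 0.0880). NPR3, the clearance receptor of natriuretic peptides, fell from 5.29 ± 0.678 to 3.17 ± 0.303 FPKM (limma adjusted p = 0.0480) and lost its call without any 1 of the 6 libraries (0.0765 to 0.148). PDE9A (2.32 ± 0.380 and 3.28 ± 0.458 FPKM), PDE6D (41.6 ± 1.18 and 35.2 ± 4.89) and PDE3B (2.01 ± 0.161 and 2.59 ± 0.192) had the next smallest p, with limma adjusted p of 0.303, 0.344 and 0.465. The median log2 difference of the list was 0.05, against -0.00273 over all tested genes.

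Around PLAC8, no gene of the brown fat and C/EBP beta list was called. CEBPB was at 30.1 ± 3.65 in the MEOX2 group and 35.1 ± 6.45 FPKM in NC (limma adjusted p = 0.6004), ZNF516 at 2.75 ± 0.371 and 2.33 ± 0.205 FPKM, and PPARA at 2.72 ± 0.130 and 2.37 ± 0.432 FPKM. Of 14 members found, 7 were tested. None was called by limma or by limma voom and none had an unadjusted p under 0.05. Over all tested genes these shares were 2.67%, 4.37% and 13.4%. UCP1, the uncoupling protein of brown fat, had 0 reads in every library and was among the 7 members below the filter. Of the tested members, COX7A1 was at 27.3 ± 3.54 in the MEOX2 group and 27.1 ± 4.55 FPKM in NC. CIDEA was at 9.93 ± 0.571 and 9.25 ± 1.27 FPKM. The median log2 difference was 0.10.

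For SCRG1, the receptor parts were present in both groups. BST1 was at 15.7 ± 0.833 in the MEOX2 group and 12.4 ± 1.999 FPKM in NC (limma adjusted p = 0.243), and ITGB1, the integrin beta 1 subunit, at 423 ± 13.4 and 424 ± 30.2 FPKM (limma adjusted p = 0.994). Of 23 receptor and cartilage genes found, 8 were tested and none was called by limma (2.67% over all tested genes). Of the 8, 3 had an unadjusted p under 0.05 (13.4% over all) and 1 was called by limma voom (4.37% over all). That 1 was the matrix protein matrilin 4, MATN4, at 3.33 ± 0.131 and 1.90 ± 0.467 FPKM (limma adjusted p = 0.0996, limma voom adjusted p = 0.0262). COL11A1, a fibrillar collagen chain, was at 373 ± 47.1 and 318 ± 5.95 FPKM (limma adjusted p = 0.342). The median log2 difference was 0.14. Of the tested genes of this list, BST1, PTK2, COL11A1 and MATN4 were higher with MEOX2 without overlap, and the groups of the rest overlapped. Over all tested genes 9.60% were higher with MEOX2 without overlap. None of 7 chondrocyte markers passed the filter, the highest being ACAN at a mean of 0.514 FPKM. Reads over the MEOX2 and the NC libraries numbered 137 and 109 for ACAN, 14 and 1 for HAPLN1, 16 and 6 for COL11A2, 11 and 12 for CHAD, 5 and 27 for MATN3, 1 and 3 for COL2A1 and 0 for COL9A1. Of these only MATN3 had groups that did not overlap, a pattern that 18.9% of all tested genes showed in either direction. The summed level of the 7 was 1.10 to 1.99 FPKM with MEOX2 and 1.26 to 1.45 FPKM in NC, and their part in the result was not tested.

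Among kinin and surface peptidase genes, BDKRB2, the bradykinin B2 receptor, rose from 6.39 ± 0.473 to 10.7 ± 0.922 FPKM (SD, n = 3 each; log2 difference 0.66, SE 0.10, limma adjusted p = 0.0137). Leaving out MEOX2 sample 3 or NC sample 1 ended its call, with a limma adjusted p of at most 0.0678. CPM, a carboxypeptidase that also acts on kinins, fell from 15.5 ± 2.55 to 9.86 ± 0.835 FPKM (limma adjusted p = 0.0467) and kept its call only without NC sample 2 (0.0435 to 0.151). FAP (111 ± 2.73 and 139 ± 11.9 FPKM), ANPEP (160.2 ± 13.3 and 195 ± 6.06) and KNG1 (3.19 ± 0.227 and 2.53 ± 0.229) were not called, with limma adjusted p of 0.0902, 0.130 and 0.449. FAP and ANPEP, both surface peptidases, were called by limma voom (adjusted p = 0.0216 and 0.0430). With BDKRB2 and CPM, limma voom called 4 genes of the list, against 4.37% of all tested genes. Of 18 tested genes, 1 rose, 1 fell and 16 were not called, against 2.67% called over all genes, and the median log2 difference was -0.10.

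In the list of lipid rafts and TLR3/TLR4 uptake, STOM, the raft protein stomatin, rose from 40.4 ± 5.49 to 58.4 ± 2.67 FPKM (SD, n = 3 each; log2 difference 0.53, SE 0.11, limma adjusted p = 0.0383). It kept its call only without NC sample 3 (0.0405 to 0.121). FYN, a kinase held at the inner membrane, was at 126 ± 8.21 in the MEOX2 group and 162 ± 8.26 FPKM in NC (limma adjusted p = 0.0533, limma voom adjusted p = 0.00853). LY96, the TLR4 co-receptor, was at 51.7 ± 2.95 and 59.9 ± 4.29 FPKM, and CD14 at 117 ± 7.01 and 105 ± 4.42 FPKM (limma adjusted p = 0.306 and 0.449). The caveolar coat gene CAV1 was at 284 ± 11.5 and 292 ± 13.3 FPKM, and the flotillin FLOT1 at 52.3 ± 1.32 and 51.9 ± 2.35 FPKM. Of 23 tested genes, 1 rose and 22 were not called, where 1.51% of all tested genes rose, and the median log2 difference was 0.06.

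**Figure D4:**
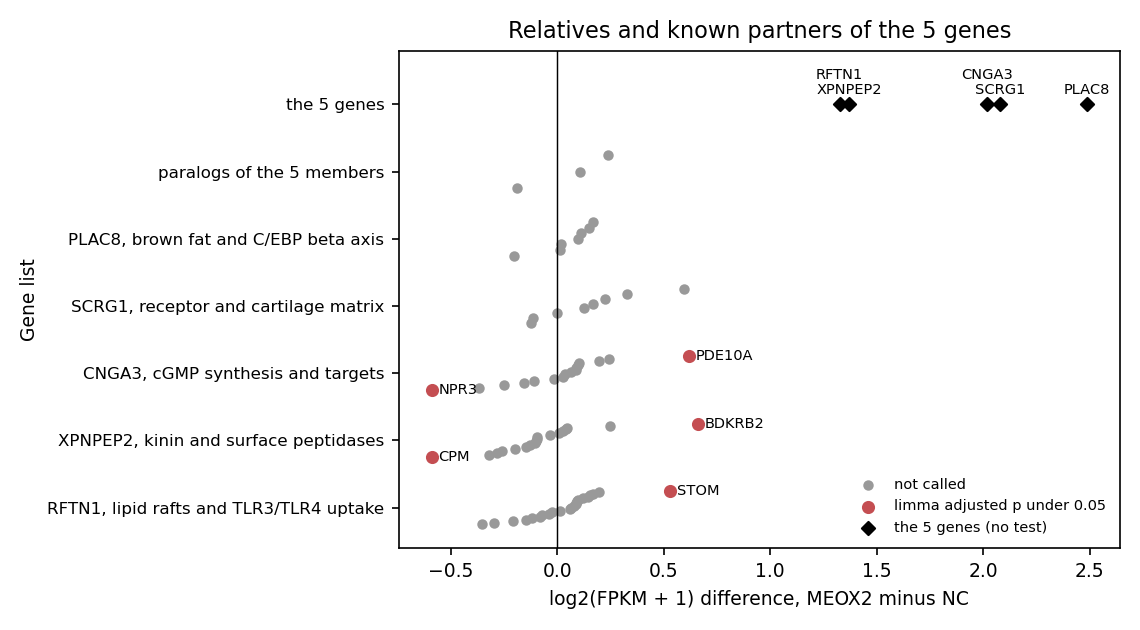
Difference in log2(FPKM + 1), MEOX2 minus NC, of each tested gene in the lists around the 5 genes, with those past a limma adjusted p of 0.05 in red and the 5 genes as black diamonds. The called genes are NPR3, PDE10A, CPM, BDKRB2 and STOM, and their differences, between -0.59 and 0.66, are smaller in size than that of RFTN1, 1.33.

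PLAC8 and RFTN1 are also known from blood cells, and markers of leukocytes were mostly near 0. PTPRC, the common leukocyte antigen, had 1 read over the MEOX2 libraries and 2 over NC, the B cell genes MS4A1 and CD79B had 0, and 4 of 11 leukocyte markers had under 5 reads in every library. S100A8 and S100A9, proteins of granulocytes and monocytes, fell, from 21.2 ± 2.15 to 9.37 ± 2.01 and from 7.33 ± 1.26 to 3.35 ± 0.576 FPKM (limma adjusted p = 0.00697 and 0.0150). Leaving out MEOX2 sample 2 or 3 or NC sample 1 or 2 ended the call of S100A9, with a limma adjusted p of at most 0.0640. Of the 11, 3 were tested and these 2 fell, where 1.16% of all tested genes fell. The remaining tested marker, CD68 of macrophages, was not called (limma adjusted p = 0.400) and its groups overlapped. In NC its level was 9.37 ± 0.469 FPKM, against 7.57 ± 1.56 FPKM in the MEOX2 group. The summed level of the 11 was 18.6 to 22.5 FPKM with MEOX2 and 36.7 to 42.3 FPKM in NC. Most of it came from S100A8, CD68 and S100A9. CSF1R, the macrophage growth factor receptor, had 21 reads with MEOX2 and 7 in NC, with overlapping groups. The part of these markers in the result was not tested. XPNPEP2 is known from kidney and gut epithelium, whose markers summed to 1.56 to 2.26 FPKM with MEOX2 and 1.35 to 1.78 FPKM in NC, with EPCAM and UMOD at 0 reads. Of these 7 markers, CUBN (195 reads over the MEOX2 libraries and 148 over NC) and LRP2 (7 and 0 reads) were higher with MEOX2 without overlap. Both were below the filter, and 9.60% of all tested genes showed this pattern. The highest of the 7, KRT8, was at 1.24 ± 0.305 and 1.08 ± 0.204 FPKM. The part of these 7 markers in the result was not tested. In bulk RNA a change in the number of cells of a type and a change in RNA per cell cannot be told apart.

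The genes next to the 5 on their chromosomes were not called. For each gene the 5 nearest rows with a symbol on each side were taken, 50 in all, of which 35 were tested. By limma 0 of the 35 were called, against 2.67% of all tested genes. An unadjusted p under 0.05 was found for HAND2 and COQ2 (2 of 35), against 13.4% of all tested genes. By limma voom 0 were called, against 4.37% of all tested genes. Their median log2 difference was 0.04. Of the tested neighbours, HAND2, COQ2, CEP44, INPP4A, PLCL2 and TBC1D5 were higher with MEOX2 without overlap between the groups. BTD and BCORL1 were higher in NC without overlap. Over all tested genes, 9.60% were higher with MEOX2 without overlap, and 18.9% had no overlap in either direction.

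The nearest neighbours of PLAC8 were COPS4, a subunit of the COP9 signalosome (60.9 ± 5.56 with MEOX2 and 53.8 ± 2.04 FPKM in NC, log2 difference 0.17), and COQ2, an enzyme of coenzyme Q synthesis (49.4 ± 1.09 and 42.5 ± 3.48 FPKM, 0.21, limma adjusted p = 0.282). Beside SCRG1, the transcription factor HAND2, 115072 bases away, was at 5.704 ± 0.525 and 4.06 ± 0.0862 FPKM, with no overlap between the groups (log2 difference 0.40, SE 0.11, limma adjusted p = 0.110). SAP30, 19526 bases away on the other side and part of a histone deacetylase complex, was at 9.51 ± 3.32 and 8.53 ± 0.831 FPKM.

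Beside CNGA3, the phosphatase gene INPP4A was at 16.4 ± 0.594 and 15.1 ± 0.220 FPKM. VWA3B, 40085 bases away on the other side, was at 0.559 ± 0.164 with MEOX2 and 0.209 ± 0.0966 FPKM in NC, or 84 and 32 reads in all, and the groups did not overlap. VWA3B was below the filter, and in the fit without a filter its log2 difference was 0.36 with a limma adjusted p of 0.233. The neighbours of XPNPEP2 were APLN, the peptide ligand apelin (30.9 ± 5.01 and 28.8 ± 3.63 FPKM), and SASH3, 8989 bases away and at 0 reads. RFTN1 lay between OXNAD1 (23.2 ± 3.87 and 23.9 ± 1.83 FPKM) and the germ cell gene DAZL, at 0 reads in all libraries.

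**Figure D5:**
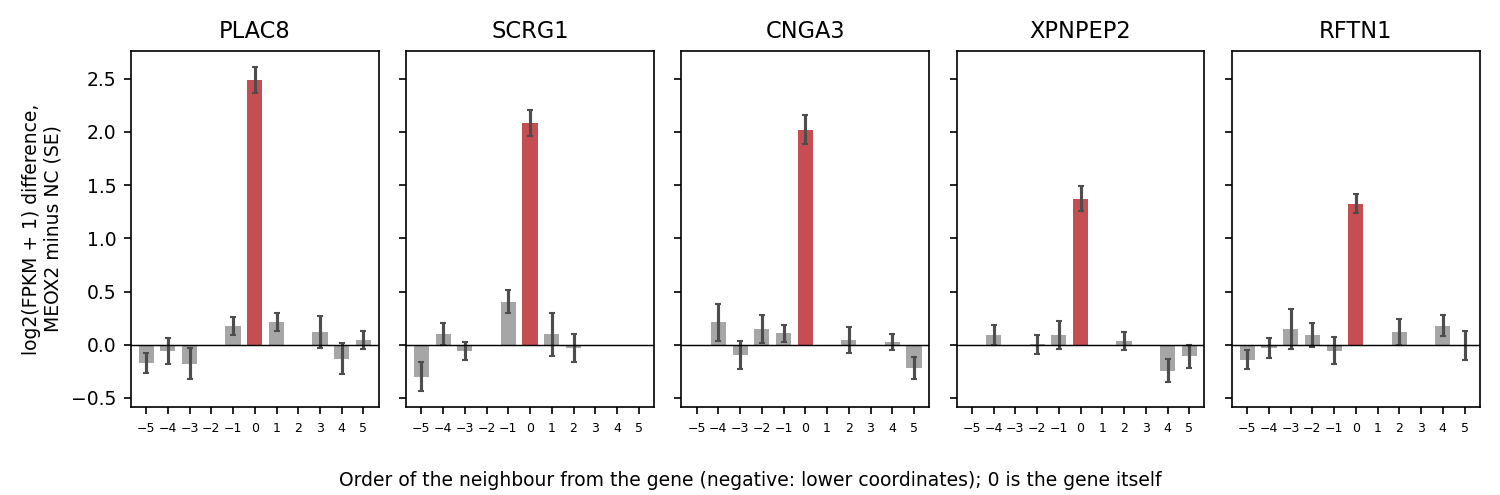
Difference in log2(FPKM + 1), MEOX2 minus NC, with its SE, for each of the 5 genes (red, position 0) and its tested neighbours (grey) in order along the chromosome; a gap is a neighbour below the filter. The grey bars lie between -0.30 and 0.40, while the red bars run from 1.33 to 2.49.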

How the data were processed

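FPKM values of 6 sheep libraries were taken from 1 table deposited by the authors. The submitters' processing notes name HISAT2 2.0.5, featureCounts 1.5.0-p3, DESeq2 1.20.0, fastp and CASAVA 1.8, without roles. For build, annotation and strand setting, nothing is stated. Per the file headers, the table gives the length of each gene row. FPKM times length was a whole number of equal steps for 100% of the non-zero values in each library (tolerance 0.001 read), which recovered the reads and their library sizes; the latter were 0.967 to 1.02 times the read totals.

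Log2(FPKM + 1) values of the 13121 rows with a mean of at least 1 FPKM entered limma 3.58.1 (R 4.3.3, intensity trend, MEOX2 against NC, 3 samples each, no covariates) and adjusted by Benjamini-Hochberg over all of them (threshold 0.05); the fit was tested on simulated data. Ratio intervals are exact conditional binomial intervals (scipy 1.17.1), and figures and summaries used Python 3.11.15.

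The 5 genes and all lists were chosen with earlier results of these data known. Named were MEOX2, the 5 genes, their paralogs, the nearest neighbours and the 3 most similar genes. Also named were list genes that were called or had the 3 smallest p among the rest. Chosen after their values were seen were CAV1, FLOT1, ITGB1, UCP1, COX7A1, CIDEA and the marker genes. So were FOXO4, SFRP1, ITGA9, PPP1R14A, oar-mir-374b, SNORD14 and SNORA31 as ranked rises. PTK2 and the neighbours CEP44, PLCL2, TBC1D5, BTD and BCORL1 were named for groups that did not overlap. Of 185 list symbols, 163 matched a symbol in the table, 7 matched through an older name and 15 had no match. The alternatives were other pseudocounts, filters, scaling, variance models, limma voom, a replicate block and leaving out each library.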

Additional observations from a re-analysis of the deposited data

How the results depend on the processing

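No difference of the 5 genes changed sign in any setting run. Their groups did not overlap, so leaving out a library or changing the pseudocount could not reverse a sign. The log2 differences moved by more than the replicate SD with a smaller pseudocount: with 0.1 they were 2.96 for PLAC8, 2.29 for SCRG1 and 3.16 for CNGA3, and with 0.5 they were 2.73 for PLAC8 and 2.49 for CNGA3. Leaving out 1 library at a time gave 2.40 to 2.57 for PLAC8, 1.96 to 2.14 for SCRG1, 1.97 to 2.06 for CNGA3, 1.27 to 1.46 for XPNPEP2 and 1.27 to 1.37 for RFTN1.

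Over all genes, 198 were called higher and 152 lower; leaving out 1 library gave 69 to 154 higher and 48 to 122 lower, with fewer samples in each fit. Without a filter there were 113 and 81, and with limma voom 309 and 265. The cGMP list, with 2 calls, had 0 without a filter, 1 with a filter of 0.5 FPKM, 1 with library sizes from read totals and 0 to 1 with a library left out. The kinin and peptidase list, with 2, had 1 without a filter, with the 0.5 FPKM filter, with read totals and without the intensity trend, 4 with limma voom, and 0 to 2 with a library left out. The raft list, with 1, had 0 without a filter or without the trend, 2 with read totals and with limma voom, and 0 to 1 with a library left out. The SCRG1 list, with 0, had 1 with limma voom. The cause was not tested. The lists of paralogs, brown fat genes and neighbours had 0 calls throughout, and the SCRG1 list 0 with each library left out.

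Same-numbered libraries did not deviate together (r of -0.0747, 0.0204 and -0.00417 for numbers 1 to 3). With the replicate block, 135 genes were called higher and 107 lower, and the cGMP list had 0 calls. The differences of the 5 genes were the same, which equal group sizes in every block fix in advance. Depth limits PLAC8, SCRG1 and CNGA3 most, with 7 to 18 reads per NC library.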
